A study of Mus musculus with 2 samples.

Results

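The genes described here encode the enzymes that make RNA in the nucleus and the proteins that bring those enzymes to promoters. Members were picked by a rule on gene names that uses no measured value. It takes the mouse protein-coding genes of GENCODE M21 whose symbols start with Polr1, Polr2 or Polr3, with Taf or Med followed by a digit, or with Gtf2 or Gtf3, together with Tbp. This gave 105 of 21938 protein-coding genes: 5 Polr1 genes, 13 Polr2 genes, 10 Polr3 genes, 24 genes of the Tbp and Taf group, 23 Gtf2 and Gtf3 genes and 30 Med genes. The study asked where GABPα binds the genome of T cells. CD4+ T cells of wild-type C57BL/6 mice were purified with magnetic (MACS) beads, and chromatin immunoprecipitation with an antibody against GABPα was followed by sequencing (ChIP-seq). There was 1 ChIP library and 1 library of input DNA prepared without antibody, so no value below has a replicate and no test between groups was possible. The list of peaks holds positions only and carries no expression, so the identity of the cells could not be checked against marker genes.

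RNA polymerase I makes the large ribosomal RNA precursor, RNA polymerase II makes messenger RNA, and RNA polymerase III makes transfer RNA and other short RNAs. At polymerase II promoters TFIID, built from the TATA-binding protein TBP and its TAF partners, starts assembly with TFIIA, TFIIB, TFIIE, TFIIF and TFIIH, and Mediator carries signals from DNA-bound activators to the polymerase. TBP also works with other TAFs in SL1, the polymerase I factor, and polymerase III uses TFIIIA and TFIIIC. GABP is an ETS-family activator in which GABPα binds DNA at the core GGAA, often within CCGGAAG, and GABPβ carries the activating domain.

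The GABP motif CCGGAAG was in 39 of 59 peaks of these genes (66.1%, Wilson interval 53.4 to 76.9), beside 57.2% of peaks at coding genes. In 34 of these 39 it lay within 100 bp of a start (87.2%, 73.3 to 94.4), beside 82.0%. Both shares of coding genes lay inside the interval of the members. The following sequences show the motif in the 2 widest peaks that hold it in each group, or 1 for the Polr3 genes. They are in the order Polr1, Polr2, Polr3, Tbp and Taf, Gtf2 and Gtf3, and Med. The peak of Polr2d is not shown. Each is written 5′ to 3′ on the named strand of mm10, with 1-based coordinates, CCGGAAG in capitals and 11 bases to either side.
Polr1c, chr17:46248070-46248098, minus strand: ccacttgacgtCCGGAAGtgaaggacgtg
Polr1e, chr4:45018623-45018651, minus strand: ggactcaaaaaCCGGAAGtgacattctag
Polr2k, chr15:36173997-36174025, plus strand: ataaatcggcgCCGGAAGttggcgaggca
Polr2m, chr9:71485899-71485927, plus strand: tcgccattttcCCGGAAGagcacggcttc
Polr3b, chr10:84622276-84622304, minus strand: tgcggaggaacCCGGAAGtgaccgagccg
Taf1b, chr12:24498571-24498599, plus strand: ccccgtctctcCCGGAAGcggcgcttgct
Taf1a, chr1:183388965-183388993, minus strand: gaaaaccctgtCCGGAAGcagttaacgag
Gtf2h2, chr13:100492561-100492589, plus strand: gacgaccctcaCCGGAAGtaccggcagtc
Gtf3c2, chr5:31180148-31180176, plus strand: aatttcagcgaCCGGAAGgggaggtcggc
Med14, chrX:12762181-12762209, plus strand: ggcgcaaggcgCCGGAAGccgcgccgcca
Med17, chr9:15280005-15280033, minus strand: agcccggtcagCCGGAAGttcctggctct

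With that of Gtf3c2, the 3 windows below show the motif nearest the start at genes of TFIIIC, a complex with a peak at every gene.
Gtf3c1, chr7:125707894-125707922, minus strand: ggcctcccgaaCCGGAAGcggccctgaca
Gtf3c4, chr2:28840673-28840701, plus strand: ggctcccggacCCGGAAGgggcggcggcg
Gtf3c6, chr10:40257702-40257730, minus strand: ttgctttctggCCGGAAGccggacgccgc

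Longer stretches show where the motif lay in a promoter. They are parts, outside annotated exons, of the peaks of Taf1a, Taf1c, Gtf3c6 and Med17, upstream of the annotated start nearest the peak. Each is written on the strand of the gene. For Gtf3c6 that start is not the 5′ end of the gene, and the stretch lies inside the gene. Capitals mark CCGGAAG, or CTTCCGG where the motif was on the opposite strand. The Taf1a stretch held a copy in each orientation within a few bases of each other, and a further copy, at the start itself, ran past the end of the stretch.
Taf1a, chr1:183388729-183388980, plus strand: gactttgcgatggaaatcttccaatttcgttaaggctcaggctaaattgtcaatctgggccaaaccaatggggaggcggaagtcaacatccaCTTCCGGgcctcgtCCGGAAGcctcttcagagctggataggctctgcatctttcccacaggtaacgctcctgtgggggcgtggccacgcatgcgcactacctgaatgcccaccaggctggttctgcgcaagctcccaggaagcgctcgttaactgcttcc
Taf1c, chr8:119605223-119605394, minus strand: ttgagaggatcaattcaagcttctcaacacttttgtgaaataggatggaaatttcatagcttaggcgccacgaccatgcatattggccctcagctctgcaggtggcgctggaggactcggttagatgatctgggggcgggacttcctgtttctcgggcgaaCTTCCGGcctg
Gtf3c6, chr10:40257677-40257801, minus strand: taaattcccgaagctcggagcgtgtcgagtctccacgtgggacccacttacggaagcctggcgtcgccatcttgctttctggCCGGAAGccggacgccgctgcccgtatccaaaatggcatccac
Med17, chr9:15279932-15280118, minus strand: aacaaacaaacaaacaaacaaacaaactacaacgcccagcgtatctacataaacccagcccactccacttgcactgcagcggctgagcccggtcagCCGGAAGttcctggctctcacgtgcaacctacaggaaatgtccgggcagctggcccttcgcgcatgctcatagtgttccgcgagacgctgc

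Of the 105 genes, 56 had a peak within 1000 bp of an annotated transcript start, which is 53.3% (95% Wilson interval 43.8 to 62.6). Among all protein-coding genes 3880 of 21938 had one, a background of 17.7%. The interval covers counting error only, since genes are not replicates of a condition, and it lay above the background share. A gene without a peak is one with no interval past the authors' cutoff near its starts. The depth of the libraries is unknown, so a missing peak does not show that GABPα was absent.

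All 6 groups included genes with and without a peak. A peak was present at 3 of 5 Polr1 genes (60%, interval 23.1 to 88.2), 7 of 13 Polr2 genes (53.8%, 29.1 to 76.8) and 4 of 10 Polr3 genes (40%, 16.8 to 68.7). It was present at 14 of 24 genes of the Tbp and Taf group (58.3%, 38.8 to 75.5), 11 of 23 Gtf2 and Gtf3 genes (47.8%, 29.2 to 67.0) and 17 of 30 Med genes (56.7%, 39.2 to 72.6). These 6 intervals overlap one another, so the counts do not order the groups. The interval of the Polr3 genes reached below the background of 17.7%, and the other 5 lay above it. With subunits shared between polymerases set apart, the polymerase I genes had a peak at 1 of 3 (33.3%, 6.15 to 79.2), and this interval covered the background.

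**Figure D1:**
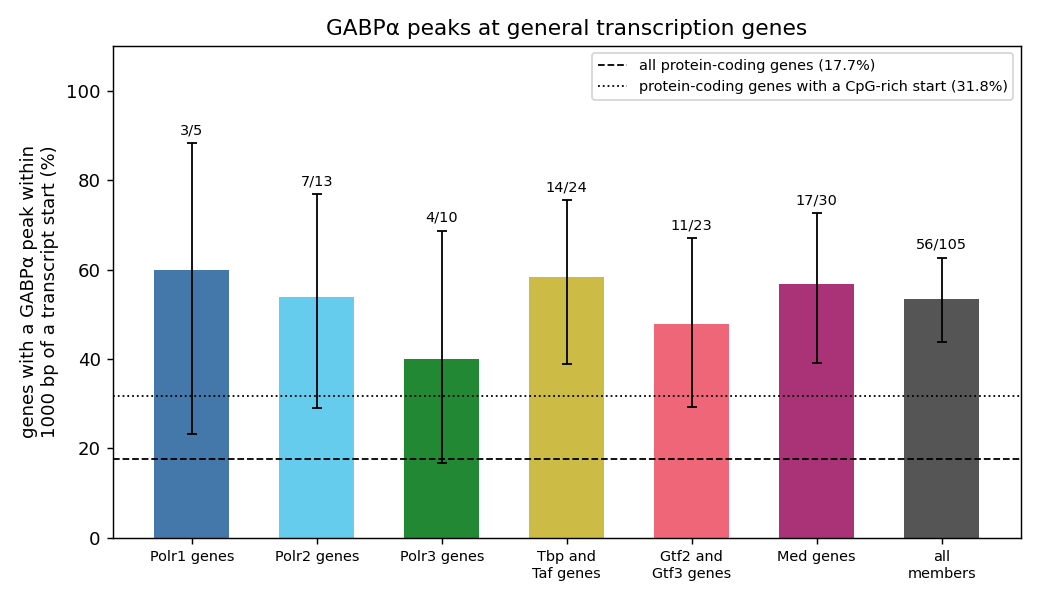
Share of genes with a GABPα peak within 1000 bp of a transcript start (y axis, percent) in each group and in all members, with 95% Wilson intervals as error bars, the counts above the bars, and lines at the shares of all protein-coding genes (dashed, 17.7%) and of those with a CpG-rich start (dotted, 31.8%). The bars run from 40% for the Polr3 genes to 60% for the Polr1 genes, and their intervals overlap.

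Promoters of housekeeping genes are often rich in CpG and in ETS motifs, so the share was also read within classes of promoter sequence. A start was called CpG-rich when the 1000 bp centred on the 5′ end of the gene had at least 50% GC and an observed to expected CpG ratio of at least 0.6. Of the members 82 of 105 (78.1%) had a CpG-rich start, against 44.4% of coding genes. Of these 82 genes 42 had a peak (51.2%, interval 40.6 to 61.7), beside a background of 31.8% of coding genes with such a start. Of the 23 members whose 5′ end was not CpG-rich 14 had a peak (60.9%, 40.8 to 77.8), beside a background of 6.39%. The 14 were Polr1e, Polr2g, Polr2k, Taf1, Taf13, Taf1b, Taf7, Gtf3c3, Gtf3c5, Gtf3c6, Med10, Med15, Med25 and Med6.

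The motif CCGGAAG was sought on both strands within 250 bp of the 5′ end. Here and below, matches that overlap on opposite strands, as in a palindromic site, count as 2 copies. It was found at 42 of 105 members (40%) and at 14.5% of all coding genes. Of the 42 members with it 35 had a peak (83.3%, interval 69.4 to 91.7), beside 62.2% of all coding genes with it. Of the 63 members without it 21 had a peak (33.3%, 22.9 to 45.6), beside 10.1%. With both a CpG-rich start and the motif the shares came close, at 26 of 33 members (78.8%, 62.2 to 89.3) and 72.4% of coding genes, and the interval of the members covered the background. With a CpG-rich start and no motif they were 16 of 49 members (32.7%, 21.2 to 46.6) and 18.7%. All 8 members with at least 2 copies of the motif had a peak, among them Polr2g, Taf12, Taf1a, Taf1b, Taf7, Gtf2a2 and Gtf3c2, as did 557 of 634 coding genes with that many (87.9%).

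For 22 member peaks the annotated start nearest the peak was not the 5′ end of the gene. Most of these members still had a peak near the 5′ end: over all members 44 had a peak covering it and 54 had one within 1000 bp of it. The classes were also set by any annotated start, a choice made after seeing the data. A peak was then found at 41 of 51 members with the motif at any start (80.4%, 67.5 to 89.0) beside 51.9% of coding genes, and at 15 of 54 members without it (27.8%, 17.6 to 40.9) beside 8.42%. It was found at 48 of 90 members CpG-rich at any start (53.3%) beside 30.6%, and at 8 of 15 others (53.3%, 30.1 to 75.2) beside 4.14%. The members had more annotated starts, a median of 5 against 3 over all coding genes, and a gene with more starts has more places where a peak is counted. Within genes of 2 to 4 starts the shares were 23 of 41 members (56.1%) and 14.8% of coding genes, and within genes of 5 or more they were 31 of 55 (56.4%) and 28.2%. With 1 start they were 2 of 9 (22.2%, 6.32 to 54.7) and 6.25%.

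**Figure D2:**
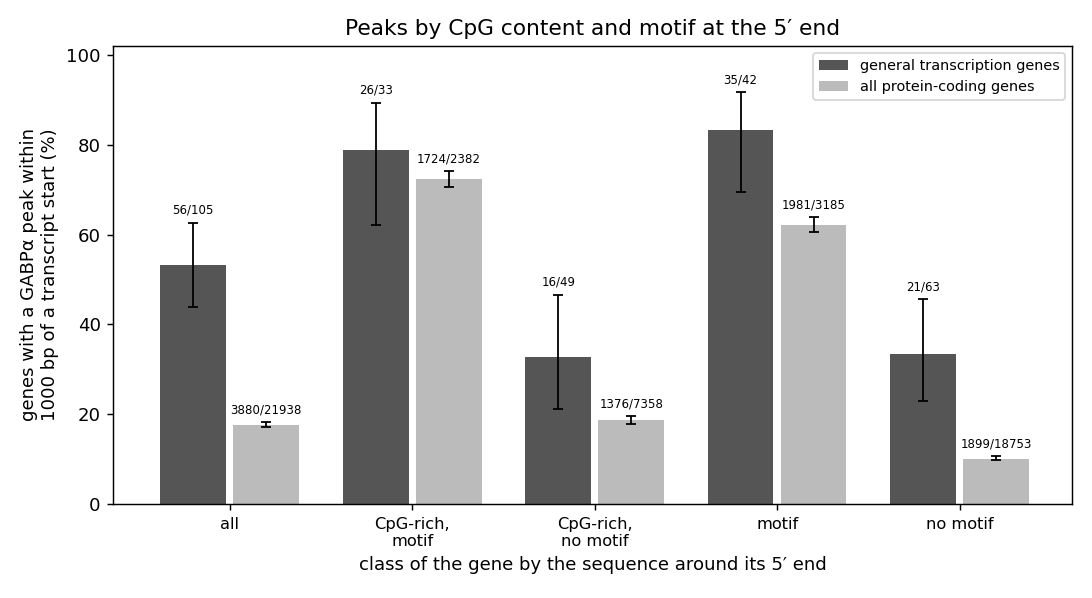
Share of genes with a GABPα peak within 1000 bp of a transcript start (y axis, percent) for the members (dark) and all protein-coding genes (light) by CpG content and CCGGAAG at the 5′ end, with 95% Wilson intervals as error bars and the counts above. The 2 bars come closest for CpG-rich starts with the motif, at 78.8% and 72.4%.

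Positions at a peak are given here and below from the annotated start nearest it, which for 22 member peaks is not the 5′ end. For members without a peak the motif is placed from the 5′ end of the gene, so the 2 kinds of position are not comparable. Among the polymerase I genes, peaks lay at Polr1c, Polr1d and Polr1e. The products of Polr1c and Polr1d are assembly subunits shared with polymerase III. The Polr1c peak (chr17:46247984-46248173, 190 bp) covered the start, its motif was centred 30 bp upstream, and the same peak lay at the start of Yipf3. The Polr1d peak (chr5:147077405-147077586, 182 bp) was shared with Lnx2 and held no CCGGAAG but 3 copies of the shorter CGGAAG. The peak of Polr1e, a subunit of polymerase I only, was at chr4:45018553-45018714 (162 bp) with the motif 25 bp upstream of the start. The genes of the 2 largest, catalytic subunits had no peak: the nearest interval lay 77666 bp from a start of Polr1a and 7775 bp from one of Polr1b.

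Among the polymerase II genes, peaks lay at Polr2c, Polr2d, Polr2g, Polr2h, Polr2j, Polr2k and Polr2m. All 7 covered a start, and 6 of them held CCGGAAG. The products of Polr2c and Polr2j pair in the assembly of the enzyme, and their motifs were centred 31 and 27 bp upstream of the start. The products of Polr2d and Polr2g form the stalk. The Polr2d peak was the widest of the group at 285 bp, with its motif 210 bp upstream, and the Polr2g peak the narrowest at 185 bp, with its motif 8 bp downstream.

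Polr2h and Polr2k encode subunits common to all of the nuclear polymerases. The Polr2k peak (chr15:36173896-36174174, 279 bp) had its motif 22 bp upstream, and the Polr2h peak (chr16:20717615-20717883, 269 bp) had none and was shared with Clcn2. The genes of the other common subunits, Polr2e, Polr2f and Polr2l, had no peak, with the nearest interval 20515 to 58259 bp away. Over the 7 subunits used by more than 1 polymerase 4 genes had a peak (57.1%). Polr2m, which encodes Gdown1, a factor bound to polymerase II, had a 246 bp peak with the motif 22 bp downstream. Polr2a and Polr2b, for the catalytic subunits, and Polr2i had none, with the nearest interval 55307 to 225176 bp away, although Polr2a held CCGGAAG 54 bp downstream of its 5′ end.

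Among the polymerase III genes, peaks lay at 4, among them Polr3a, Polr3b and Polr3d, and all 4 covered a start. Here the genes of both catalytic subunits, Polr3a and Polr3b, had one. The Polr3b peak (chr10:84622188-84622458, 271 bp) had its motif 3 bp upstream, and that of Polr3d (232 bp) had only CGGAAG. The Polr3a peak (195 bp) also lay at the start of Rps24, a ribosomal protein gene. Polr3c, Polr3e, Polr3f, Polr3g, Polr3gl and Polr3k had no peak, with the nearest interval 64842 to 231541 bp away. Polr3g held CCGGAAG 26 bp upstream of its 5′ end.

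Tbp itself had a peak of 343 bp (chr17:15499672-15500014), wider than 95.2% of the list, that covered its start. It held no CCGGAAG, but it had 1 CGGAAG and 6 copies of GGAA, and it was shared with the divergent proteasome gene Psmb1. A separate interval (171 bp) lay 1502 bp from the start of Tbp, at Psmb1, and another (208 bp, 2 motifs) lay inside Tbp at the start of Pdcd2. Of the 4 TAF genes of SL1 the peaks lay at Taf1a, Taf1b and Taf1c, and Taf1d had none, its nearest interval being 26096 bp away. The Taf1b peak (chr12:24498487-24498828, 342 bp) had its motif 45 bp upstream of a start inside the gene, not of its 5′ end. The Taf1a peak (chr1:183388729-183389052, 324 bp) had 3 motifs, centred 2, 143 and 157 bp upstream. The Taf1c peak (252 bp) had its motif 8 bp upstream.

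Of the 17 TFIID genes, Tbp included, 10 had a peak (58.8%). The others with one were Taf1, for the largest subunit, Taf2, Taf3, Taf7, Taf9, Taf10, Taf11, Taf12 and Taf13. The Taf7 peak (293 bp) had 3 matches to the motif within 43 bp upstream of the start, and the Taf12 peak (251 bp) had 2. In Taf7 the matches centred 40 and 43 bp upstream overlap on opposite strands as a palindromic site. Taf9 had 2 peaks that did not cover its start, of 265 bp ending 96 bp and of 108 bp ending 496 bp upstream, and both were shared with Ak6 and Rad17 and held no CCGGAAG. The Taf3 peak (154 bp) ended 64 bp upstream of the start. Taf4, Taf4b, Taf5, Taf6, Taf7l, Taf8 and Taf9b had none, with the nearest interval 10093 to 109152 bp away, and Taf4b and Taf7l are paralogues known from germ cells. Taf7l held CCGGAAG 159 bp downstream of its 5′ end.

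The SAGA coactivator has its own TAF paralogues. Taf5l had a narrow peak of 108 bp, shared with Urb2, that ended 38 bp upstream of the start and had its motif 86 bp upstream. Taf6l had none within 1000 bp and was the only member whose nearest interval lay between 1000 and 5000 bp. That interval (chr19:8774364-8774832, 469 bp, 2 motifs) was 2130 bp from a start of Taf6l, inside the gene, at the start of Tmem179b. No member had its nearest peak between 500 and 1000 bp. Taf15, for an RNA-binding protein, had no peak, and its nearest interval lay 173928 bp away.

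The Gtf2 genes encode initiation factors of polymerase II, apart from 3 genes of the TFII-I family, of which 1 had a peak. The Gtf3 genes encode initiation factors of polymerase III. A peak was present at 5 of 16 Gtf2 genes (31.2%, interval 14.2 to 55.6) and at 6 of 7 Gtf3 genes (85.7%, 48.7 to 97.4), beside the background of 17.7%, which lay inside the interval of the Gtf2 genes. The 2 intervals overlapped, and the difference was not tested. With each peak counted for the nearest coding gene only, it was 3 of 16 Gtf2 genes and 4 of 7 Gtf3 genes. Factors outside the naming rule ran the other way, with 4 of 5 further TFIIH genes of polymerase II and 1 of 3 TFIIIB genes of polymerase III. Of the Gtf3 genes all 6 of TFIIIC, which binds the internal promoters of transfer RNA genes, had a peak (100%, 61.0 to 100), and Gtf3a, for TFIIIA, had none. The nearest interval lay 115674 bp from a start of Gtf3a, which held CCGGAAG 28 bp downstream of its 5′ end.

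Gtf3c2 had the widest TFIIIC peak (chr5:31179882-31180261, 380 bp), with motifs 45 bp upstream and 214 and 217 bp downstream, and it was shared with Gm29609. The matches 214 and 217 bp downstream overlap on opposite strands as a palindromic site. The Gtf3c1 peak (261 bp) had its motif 128 bp upstream and was shared with D430042O09Rik. The Gtf3c4 peak (chr2:28840641-28840744) was 104 bp wide, the minimum among all peaks, lay 281 bp upstream of the start with its motif 327 bp upstream, and was shared with Ddx31. The Gtf3c6 peak (145 bp) had its motif 40 bp upstream, and the peaks of Gtf3c3 (168 bp) and Gtf3c5 (242 bp) had no CCGGAAG. The TFIIIC count therefore includes 3 genes whose peak could not be assigned to 1 gene.

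The widest member peak was that of Gtf2h2, for a subunit of TFIIH, the factor that opens promoter DNA and repairs damage (chr13:100492230-100492707, 478 bp, wider than 98.9% of the list), with its motif 22 bp upstream. Gtf2h1 had 2 peaks, of 258 bp over its start and of 112 bp ending 265 bp upstream, both shared with Hps5 and without CCGGAAG. The Gtf2h3 peak (265 bp) was shared with Eif2b1 and had no CGGAAG. Gtf2h4 and Gtf2h5 had none, with the nearest interval 196544 and 26541 bp away. For TFIIA, Gtf2a2 had a 329 bp peak with the motif 4 bp downstream, and Gtf2a1 and its germ-cell paralogue Gtf2a1l had none.

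Gtf2b (TFIIB), Gtf2e1 and Gtf2e2 (TFIIE), and Gtf2f1 and Gtf2f2 (TFIIF) had no peak, with the nearest interval 20855 to 115812 bp away. Gtf2a1 and Gtf2f1 held CCGGAAG 23 and 37 bp upstream of the 5′ end. Of the TFII-I family, which carries the name of a general factor but binds DNA at particular promoters, Gtf2ird2 had a 141 bp peak with the motif 5 bp upstream, and Gtf2i and Gtf2ird1 had none.

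Mediator is built from modules, each of a few genes, and their counts stand beside the background of 17.7%. In the head, which contacts polymerase II, 9 of 12 genes had a peak (75%, interval 46.8 to 91.1): Med6, Med8, Med17, Med18, Med19, Med20, Med28, Med29 and Med30. In the middle 4 of 8 did (50%, 21.5 to 78.5), Med4, Med7, Med10 and Med31, and in the tail with the scaffold subunit Med14 it was 4 of 6 (66.7%), Med14, Med15, Med23 and Med25. In the kinase module, which reversibly binds and blocks the core, 0 of 4 Med genes did (interval 0 to 49.0). These are Med12, Med12l, Med13 and Med13l. All 4 had a CpG-rich 5′ end, and both the background of 17.7% and that of 31.8% for such starts lay inside this interval. The nearest peak lay 35888 to 315554 bp from their starts. Of the kinase module genes outside the naming rule, Ccnc had a peak, and Cdk8 and Cdk19 did not. The intervals of all of the modules overlap, and no test was made.

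The widest Mediator peak was at Med14 (chrX:12761946-12762273, 328 bp), with the motif 122 bp upstream. Med17, for a central subunit of the head, had one of 283 bp with its motif 88 bp upstream, and Med8 one of 272 bp with its motif 59 bp upstream. The Med10 peak (209 bp) had 3 matches to the motif, 27, 34 and 37 bp upstream of a start inside the gene, not of its 5′ end. The matches at 34 and 37 bp overlap on opposite strands as a palindromic site. Med25 had 2 peaks: that of 176 bp was the only member peak without a GGAA, and that of 105 bp, the narrowest of the group, held 2. Med11, Med22 and Med27 of the head, Med1, Med9, Med21 and Med26 of the middle, and Med16 and Med24 of the tail had no peak, with the nearest interval 5577 to 195489 bp away. Med1 held CCGGAAG 91 bp downstream of its 5′ end.

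**Figure D3:**
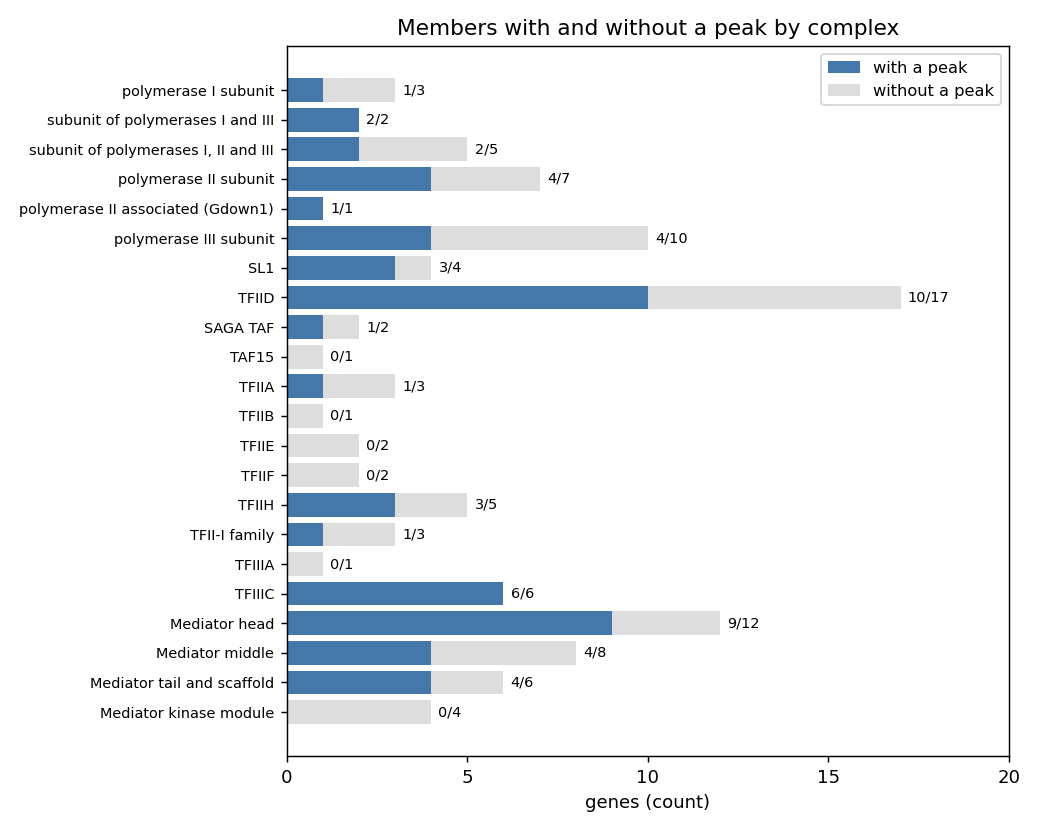
Number of genes (x axis) with a peak (blue) and without one (grey) for each complex, with the counts written beside the bars. TFIIIC had a peak at 6 of 6 genes and the Med genes of the kinase module at 0 of 4, beside 17.7% of all protein-coding genes. The interval of the kinase module genes, 0 to 49.0, covers that share. Counting each peak for the nearest coding gene only takes Gtf3c1 and Gtf3c4 out of the TFIIIC count.

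The motif near the 5′ end was also present at genes without a peak. The windows below show them for the 7 such members, in the format used above.
Polr2a, chr11:69758569-69758597, minus strand: gaaggtggctcCCGGAAGggggagagaca
Polr3g, chr13:81711025-81711053, plus strand: aggccacacccCCGGAAGagagcttttta
Taf7l, chrX:134476317-134476345, plus strand: cgggacgagggCCGGAAGggacctggggc
Gtf2a1, chr12:91590496-91590524, minus strand: gcgcgcgggagCCGGAAGccgcgccacgt
Gtf2f1, chr17:57011311-57011339, plus strand: tagagcctgacCCGGAAGttgagctgcca
Gtf3a, chr5:146948671-146948699, plus strand: gggccgcgttcCCGGAAGttcaaagtctc
Med1, chr11:98193188-98193216, minus strand: ctgagccttccCCGGAAGagtcggggccg

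The 49 genes without a peak were mostly far from any interval, at a median of 77666 bp and a range of 2130 to 1271564 bp from a start. Of them 45 were more than 10000 bp away. Of the 49 genes 40 had a CpG-rich 5′ end, against 42 of the 56 genes with a peak, and 7 had the motif there, against 35 of 56.

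The 56 genes had 59 peaks. The members' peaks were somewhat wider than those at all coding genes, with a median of 224 bp (quartiles 179 and 270, range 104 to 478) beside 210 bp (159 and 267). CCGGAAG occurred in 39 of 59 (66.1%, interval 53.4 to 76.9), beside 57.2% of the 3459 peaks at coding genes. CGGAAG, which is part of it, occurred in 81.4% beside 76.6%, and GGAA in 98.3% beside 98.8%. At least 3 matches to CCGGAAG, counted on either strand, occurred in 4 peaks, those of Taf1a, Taf7, Gtf3c2 and Med10 (6.78%, 2.67 to 16.2), beside 2.72%. In Taf7, Gtf3c2 and Med10, 2 of the matches overlap on opposite strands as a palindromic site, so only Taf1a held 3 separate sites. The share of 2.72% counts such sites in the same way. By group the median width was 182 bp for the Polr1 genes, 246 bp for Polr2, 252 bp for Polr3, 227 bp for Tbp and Taf, 250 bp for Gtf2 and Gtf3 and 211 bp for Med. CCGGAAG was in 2 of 3, 6 of 7, 2 of 4, 11 of 15, 7 of 12 and 11 of 18 of their peaks, in the same order.

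Most peaks covered a start, and the motif mostly lay just upstream of it. The start is the annotated start of the gene nearest the peak, and for 22 member peaks it was not the 5′ end. Members had a median of 5 annotated starts against 3 over all coding genes, so a nearby start was easier to find. A start was covered by 53 of 59 peaks (89.8%, interval 79.5 to 95.3), beside 80.2% at coding genes. The midpoint was at a median of 24.5 bp upstream, given as -24.5 bp (quartiles -52.8 and -0.750), beside -15.5 bp. The motif nearest the start was at a median of -27 bp (quartiles -51.5 and 1, range -327 to 22), beside -13 bp. It lay upstream in 29 of 39 peaks (74.4%, 58.9 to 85.4), beside 63.7%, and on the strand of the gene in 18 of 39 (46.2%, 31.6 to 61.4), beside 51.8%. It was within 100 bp of the start in 34 of 39 (87.2%, 73.3 to 94.4), beside 82.0%. Each of these shares of coding genes lay inside the interval of the members.

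**Figure D4:**
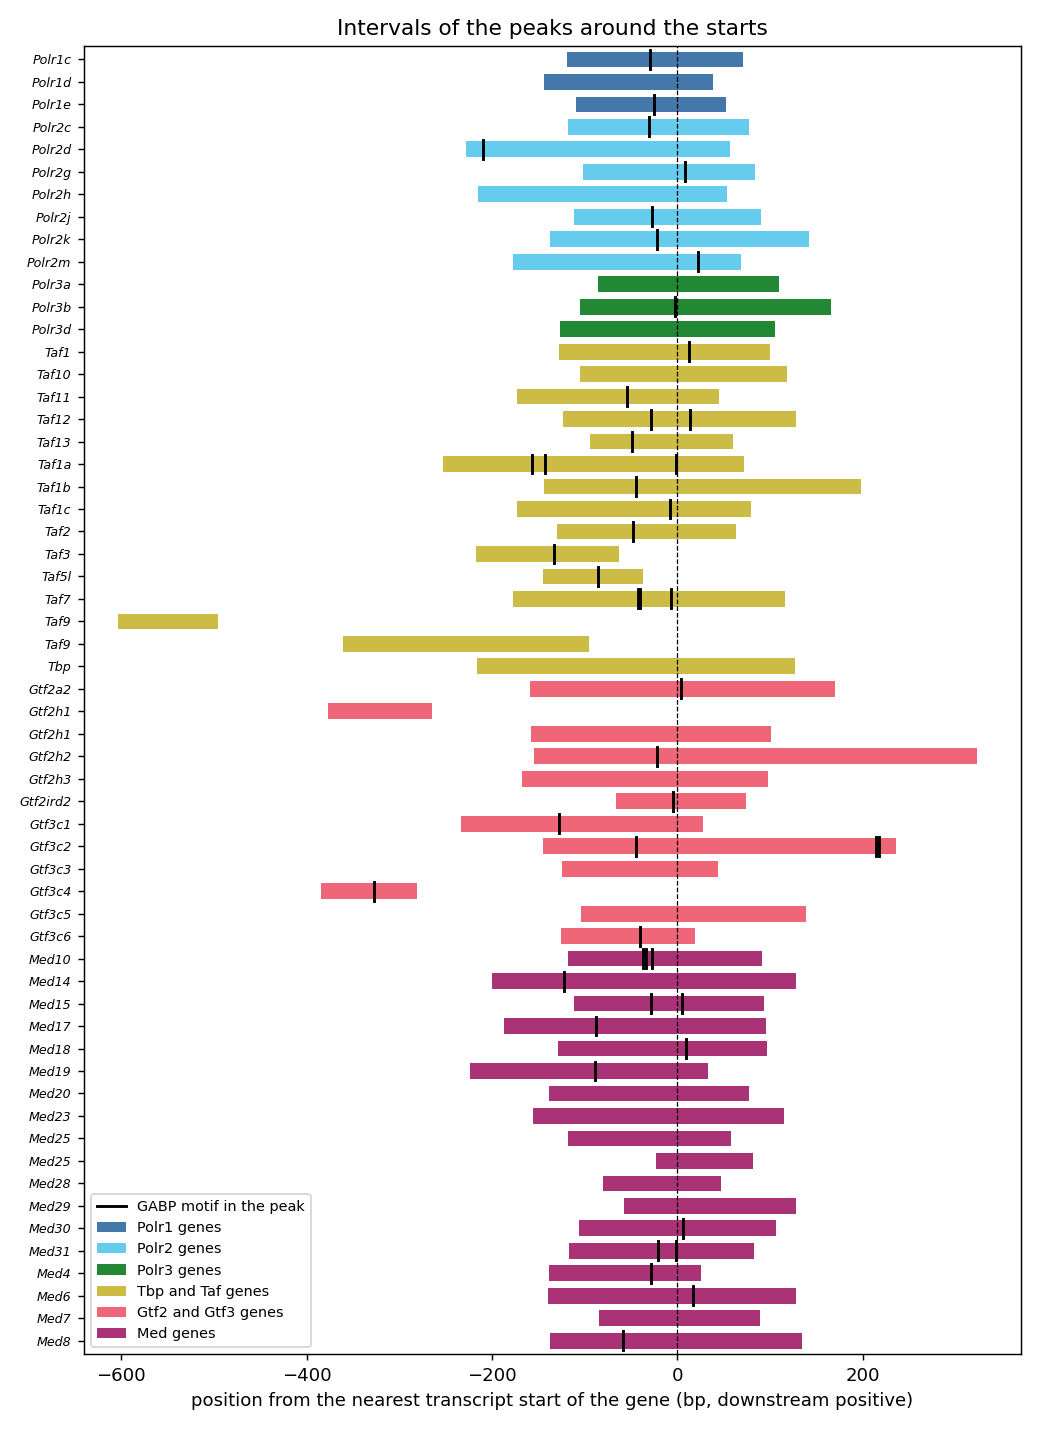
Member peaks (1 of the 59 is not drawn), each a bar from its left to its right edge, in bp from the nearest transcript start of the gene (x axis, upstream negative, dashed line at the start), 1 row per peak, coloured by group, with black marks at the centres of CCGGAAG. Most bars cross the line, as 53 of all 59 peaks cover a start, and 34 of the 39 peaks with the motif have it within 100 bp of the start.

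Shared promoters were frequent. Of the 59 peaks 19 (32.2%, interval 21.7 to 44.9) also lay within 1000 bp of a start of another protein-coding gene, beside 20.7% of peaks at coding genes. For 17 members every peak was shared, so it cannot be assigned to the member. Further partners were Anks1 with Taf11, Gm28635 and Tmx2 with Med19, Bysl and Gm20517 with Med20, and Paf1 with Med29. For 7 members the peak also lay at a noncoding gene, among them Mir320 with Polr3d and the small nucleolar RNA gene Rnu3a with Gtf3c6, and the other pairs were Gm26533 with Polr2d, Gm17249 with Polr3b, C630004M23Rik with Taf3, Gm14634 with Med14 and 4930563E22Rik with Med31. Counting each peak only for the coding gene with the nearest start left 47 members, with the loss of Polr1c, Polr2h, Taf5l, Taf9, Taf11, Gtf2h1, Gtf2h3, Gtf3c1 and Gtf3c4. The count of Gtf2 and Gtf3 genes then fell to 7 of 23 (30.4%), and the count of TFIIIC genes lost Gtf3c1 and Gtf3c4.

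The sequences of the peaks were mostly unique in the genome. In 52 of 59 peaks every 36-base sequence, the length of the reads, occurred once in mm10, and in the other 7 at least 50% of them did. No member peak was at least 50% soft-masked, which marks repeats in the reference, beside 1.73% of the peaks at coding genes.

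A list of 42 other genes of the same pathways, which the naming rule leaves out, had a peak at 23 (54.8%, interval 39.9 to 68.8), beside the background of 17.7%. All 4 relatives and regulators of TBP had one: Btaf1, Dr1, Drap1 and Tbpl1. Among the remaining TFIIH genes it was 4 of 5, the kinase subunit genes Cdk7, Ccnh and Mnat1 and the helicase gene Ercc3, and not Ercc2. Among elongation factors it was 8 of 11, and not Nelfa, Nelfcd and Supt5. Of 5 further polymerase I genes Rrn3, for a factor that recruits the enzyme, was the 1 with a peak. TFIIIB had 1 of 3 (Brf2), SNAPc 2 of 5 (Snapc2 and Snapc4), and the polymerase assembly factors 2 of 6 (Gpn2 and Rpap1). For the Mediator kinase module Ccnc had a peak, and Cdk8 and Cdk19 did not, with the nearest interval 3165 and 37189 bp away.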

How the data were processed

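GABPα ChIP-seq of CD4+ T cells gave 1 library, with 1 of input DNA as control. Reads of 36 bp were cleaned by the authors in Trimmomatic (quality 20, at least 30 bases kept), aligned to mm10 with Bowtie and called peaks with MACS2 against the input at a q value cutoff of 0.01. Tool versions, and the handling of reads that match several places, are not given in the sources used here. The authors deposited positions of 6782 peaks with no other measurement, since the score column is empty, so the depth is unknown. The strand column, the input reads and the expression data of the study were not used here.

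Listed starts were read as 0-based. Peaks were set on GENCODE M21 starts and on GRCm38.p6, the build called mm10. A peak counted for every gene with a transcript start within 1000 bp. Complexes follow the usual assignment of subunits. Shares have Wilson intervals (95%, counting error only). The members, lists and tests were chosen with earlier results of these data known.

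Members are named as having a peak or not, except 1 that is not reported here by name. Fuller values were given for the 3 widest and the narrowest peaks of each group, for members with 2 or more peaks, for peaks without GGAA, for members whose nearest peak lies 500 to 5000 bp away, and for members without a peak that have CCGGAAG within 250 bp of the 5′ end. Printed windows have 11 flanking bases in place of the planned 12, and longer stretches end at annotated exons. Alternatives covered distance, transcripts, overlap, peak width, masking, the gene a peak is counted for, grouping and motif. The scripts were tested on simulated data. Tools were Python 3.11.15, numpy 2.4.6, scipy 1.17.1, pysam 0.24.0, numba 0.67.0, samtools 1.23.1 and matplotlib 3.10.9.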

Additional observations from a re-analysis of the deposited data

How the results depend on the processing

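Of 88 alternative values 82 stayed within the limits set for a move (1.5 times for counts, the interval for shares). The count of 56 members was also found at 500 bp and at 2000 bp, with protein-coding transcripts only, with peaks under 50% soft-masked and with at least 50% of the peak inside the distance. It was 47 with a peak counted for the nearest coding gene only, and 52 members had a peak over a start. A peak near the 5′ end of the gene record was found at 54 (without Med10 and Med15). One of at least the median width of 157 bp was found at 49. The share of all coding genes with a peak also fell from 17.7%, to 15%, 14%, 16% and 14% in the same order. With a peak counted for the nearest coding gene only, the Gtf2 and Gtf3 genes with a peak fell from 11 to 7. Grouping by complex took the polymerase I genes from 3 of 5 (60%) to 1 of 3 (33.3%), which stayed within the interval. The motif share of 66.1% became 81.4% with CGGAAG, 96.6% with CGGAA and 98.3% with GGAA. With classes set at any start, chosen after seeing the data, the share with a peak of coding genes with the motif moved from 62.2% to 51.9% and of CpG-rich coding genes from 31.8% to 30.6%. No paired analysis was possible because there was 1 ChIP library, and no library could be left out. The list has no height or q value, so width stood in for a stricter threshold.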
